A study of Mus musculus with 7 samples.

Results

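The genes of the cytosolic ribosome were examined in cloned mouse embryos. These come from somatic cell nuclear transfer (SCNT): an enucleated oocyte receives the nucleus of a cumulus cell. They were taken from the expression table by symbol: Rpl or Rps followed by a digit, plus Rpsa, Rplp0, Rplp1 and Rplp2. The Rps6k kinases (10 rows) and symbols marked as pseudogenes (7 rows) were left out. This gave 88 genes of 24319 rows, 53 of the large and 35 of the small subunit. Of these, 77 are the canonical genes, 6 are paralogs (Rpl3l, Rpl10l, Rpl22l1, Rpl36al, Rpl39l and Rps27l), 3 are retrocopies (Rpl37rt, Rps27rt and Rps4l) and 2, Rps19bp1 and Rpl7l1, carry a ribosomal symbol without being subunits. All 88 passed the filter on low values, an FPKM of at least 1 in 2 or more libraries. FPKM are fragment counts divided by transcript length and by a measure of library size, so levels of different genes in a library can be set side by side.

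RNA was measured in 7 libraries. CROC+K+M embryos (2 libraries) came from vitrified, warmed oocytes and were exposed to 10 µM melatonin. CROC+K embryos (3 libraries) came from vitrified, warmed oocytes as well, and FOC+K embryos (2 libraries) from fresh ones. In all 3 groups the embryos were wild type, of B6D2F1 strain, carried a cumulus cell nucleus and had been injected with mRNA of Kdm4a, a histone demethylase, so no group shows SCNT without Kdm4a. A vehicle is named for the series but not per library. Each library was made from a pool of 50 to 100 embryos. Every library is labelled as 2-cell stage, while the treatment protocol names blastocysts as well.

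A ribosome has a small subunit that reads the mRNA and a large subunit that joins amino acids, and most ribosomal proteins are present in a single copy, while the stalk holds several copies of Rplp1 and Rplp2. The mRNAs of these proteins are known for a terminal oligopyrimidine tract, a run of C and T at the very start of the transcript through which Larp1 and the mTOR pathway set their translation and stability. Oocytes store ribosomes and their mRNAs, and the early mouse embryo lives on this store until its own genome becomes active. Many ribosomal protein genes have left intronless copies in the genome, some nearly identical to the parent, which makes their reads hard to assign.

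Promoter sequences show these features for some of the genes that the results turn on. Each line gives 50 bases, from 20 before the RefSeq transcription start to 30 from it on, on the strand of the gene in build GRCm38.p6, with the longest run of pyrimidines in capitals.

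Rpl38 (chr11:114668560-114668609, plus strand): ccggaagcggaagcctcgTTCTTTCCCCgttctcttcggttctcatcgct

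Rplp2 (chr7:141447631-141447680, plus strand): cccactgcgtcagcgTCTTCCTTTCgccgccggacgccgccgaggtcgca

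Rps21 (chr2:180257359-180257408, plus strand): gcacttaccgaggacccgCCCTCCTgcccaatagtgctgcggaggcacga

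Rpl41 (chr10:128549139-128549188, minus strand): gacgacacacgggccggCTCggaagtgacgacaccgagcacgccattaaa

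Rps27 (chr3:90213619-90213668, minus strand): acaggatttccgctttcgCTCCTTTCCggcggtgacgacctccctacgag

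Rps27rt (chr9:114982710-114982759, minus strand): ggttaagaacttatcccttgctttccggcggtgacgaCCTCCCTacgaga

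Rps27l (chr9:66946066-66946115, plus strand): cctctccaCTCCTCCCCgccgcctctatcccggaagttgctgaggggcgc

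Rpl38 and Rps27 carry a pyrimidine run across the annotated start, at base 21 of the line. The runs of Rplp2 and Rps21 span it too, and the longest run of Rpl41 has 3 letters. The run of Rps27l ends before its annotated start. Rps27rt is a retrocopy of Rps27: from its start on, 38 letters match those of Rps27 read from 1 letter after its own start, and its capitals fall in this shared stretch. RefSeq gave a promoter for 67 of the 88 genes, with 79 windows in all because some genes have several starts. A run of 7 or more pyrimidines was present in 58.2% of these windows, against 28.6% of all 32851 promoters. CTTTCC on the gene's strand was in 16.5% of the same 50-base windows, against 2.40% of all promoters. In the whole 300-base promoters, CCGGAAG on either strand, the letters bound by ETS family factors such as Gabpa, was in 34.2% against 8.86%, and TATAAA on either strand in 8.86% against 13.6%. These matches describe letters and not binding. CCGGAAG opens the Rpl38 line above. The last 2 letters of CTTTCC can be the first 2 of CCGGAAG, and CTTTCC is itself made of pyrimidines, so these features are not independent.

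Libraries differed in ways that touch every result below. FPKM summed to between 552356 and 1017995 per library, and the number of fragments behind them is unknown. CROC+K+M replicate 1 stood apart: it correlated with the other libraries at 0.851 to 0.875 over the 12271 genes tested, against 0.908 to 0.974 among the others. All 21 genes of a trophectoderm marker list were at an FPKM of 1 or more in it and summed to 27280, mostly Fabp3 at 24404. In the other 6 libraries 10 to 12 of these markers reached 1, and the list summed to 51.2 to 76.9. Not every marker was raised in CROC+K+M replicate 1. Cldn6 was lowest there (5.131), and Tead4 was at 5.276, beside 5.295 in CROC+K+M replicate 2. Oocyte markers summed to 4432 and 4502 in CROC+K+M, to 5784, 5858 and 7227 in CROC+K, and to 6826 and 6576 in FOC+K. By this sum both CROC+K+M libraries were the lowest. Oosp1 made up most of it, at 3072 and 3193 FPKM in CROC+K+M, 3548, 3923 and 5316 in CROC+K, and 5270 and 4815 in FOC+K. Single markers went both ways. Bmp15 was lowest in CROC+K+M (288.5 and 299.2), while Ooep was highest in CROC+K+M replicate 1 (161.2) and Zp3 in replicate 2 (71.7). Markers of cumulus cells summed to 32.1 and 30.7 in CROC+K+M, to 40.6, 41.5 and 46.0 in CROC+K, and to 34.9 and 39.8 in FOC+K, with both CROC+K+M libraries lowest again. These sums were small, and only 5 to 9 of the 19 markers reached an FPKM of 1 in a library. Amhr2 was highest in CROC+K+M replicate 1 (9.46) and Vim in replicate 2 (7.79). Nr5a2 had 6.193 and 6.975 FPKM in CROC+K+M, and 4.09, 15.4 and 18.5 in CROC+K. Genes of the 2-cell stage summed to 519.5 and 245.2 in CROC+K+M, to 212.2, 898.4 and 1280.0 in CROC+K, and to 557.4 and 270.7 in FOC+K. Rn45s, the precursor of ribosomal RNA, was at 224.1 and 175.4 in CROC+K+M, at 2114, 265.7 and 237.2 in CROC+K replicates 1 to 3, and at 1183 and 1047 in FOC+K. Kdm4a spanned a 9.95-fold range, and its groups overlapped.

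**Figure D1:**
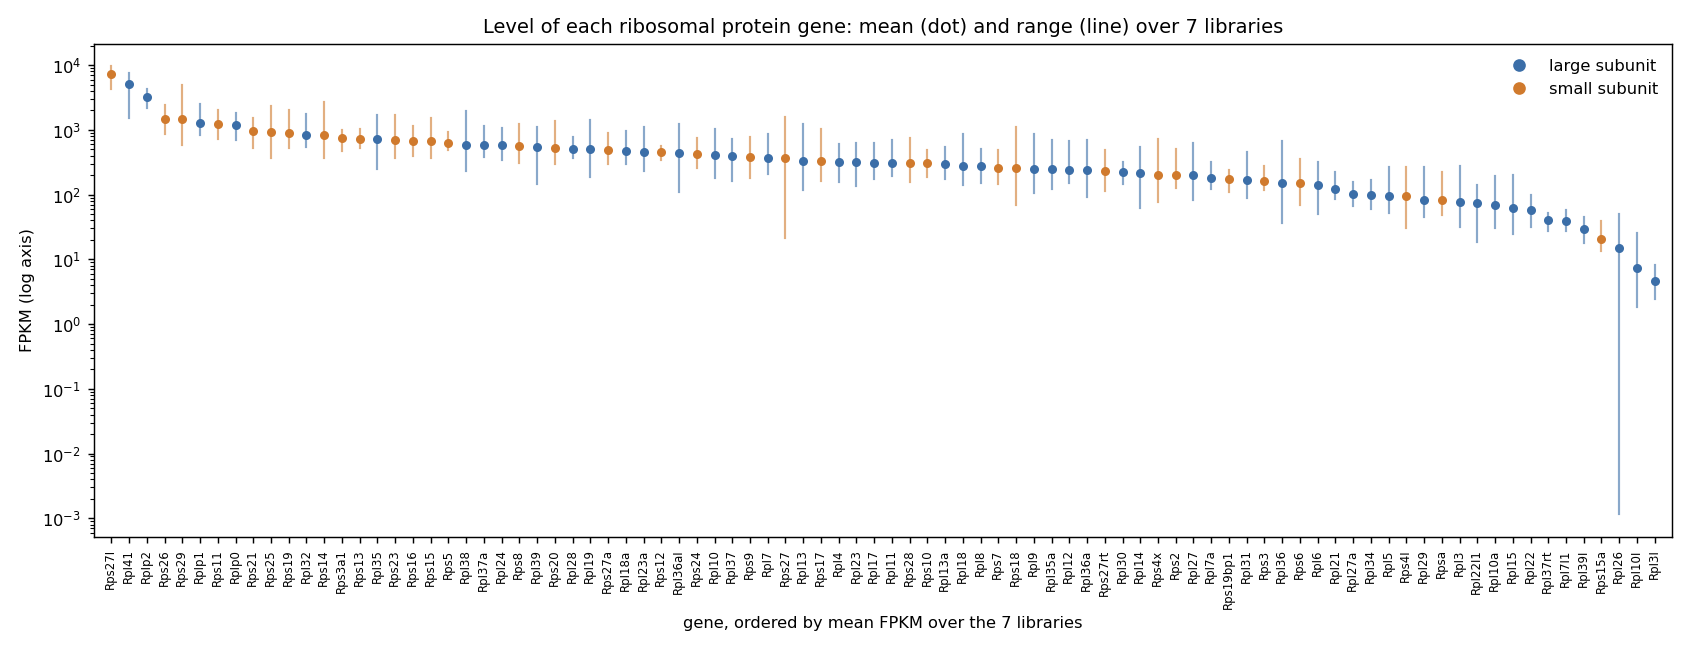
FPKM (log axis) of each of the 88 ribosomal protein genes, ordered by mean over the 7 libraries; dots are means, lines run from the lowest to the highest library, and colours mark the subunits. Most genes have a mean between 100 and 1000 FPKM; Rps27l, Rpl41 and Rplp2 lead, and Rpl26 is the one gene whose line reaches below 1.

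The mRNAs of ribosomal proteins were far from equal in level. Mean FPKM was 1000 or more for 8 genes (4 of each subunit), between 100 and 1000 for 63, and under 100 for 17, of which 14 belong to the large subunit. The highest was Rps27l, a p53-responsive paralog of the small subunit protein Rps27, at 9571 and 8935 FPKM in CROC+K+M, at 5901, 8996 and 8981 in CROC+K, and at 4210 and 4764 in FOC+K. Both FOC+K libraries lay below all others. Next came Rpl41, which encodes a very short peptide of the large subunit, at 7131 and 6136 FPKM in CROC+K+M, at 1523, 7529 and 7286 in CROC+K, and at 3889 and 2341 in FOC+K. Its lowest value was in CROC+K replicate 1, and the range within CROC+K covered all 4 libraries of the other groups. Rplp2, which forms the stalk that recruits elongation factors, had 3334 and 4114 FPKM in CROC+K+M, 2471, 4243 and 3756 in CROC+K, and 2453 and 2192 in FOC+K. Rps26, which sits where the mRNA leaves the small subunit, had 2439 and 1556 FPKM in CROC+K+M, 862, 1985 and 1474 in CROC+K, and 1161 and 955 in FOC+K.

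At the low end stood Rpl3l, in mammals a paralog of heart and skeletal muscle, with 2.46 to 8.28 FPKM over the 7 libraries, and Rpl10l, a testis paralog, with 1.85 to 25.4. The rows of 2 canonical genes were low as well. Rps15a, a small subunit gene, ran from 13.4 to 39.5 FPKM, and Rpl26, at the exit tunnel of the large subunit, from 0.00115 to 50.3. Both have near-identical copies with rows of their own, so these rows may not hold all of their reads. Rpl26 and its copy Gm15772 summed to 318.4 to 1198 FPKM, and Rps15a and its copy Rps15a-ps6 to 21.56 to 50.16. Rpsa, the small subunit protein also known as a laminin receptor, had 223.4 and 60.0 FPKM in CROC+K+M, 63.6, 48.3 and 58.8 in CROC+K, and 67.4 and 62.1 in FOC+K. It was high in CROC+K+M replicate 1 alone. Across the 86 genes with a coding length, level and length had a Spearman correlation of -0.30, a description over genes that share their libraries. The order of the genes was similar between libraries, with Spearman correlations over the 88 genes of 0.908 to 0.977 among the 6 libraries other than CROC+K+M replicate 1, which had 0.778 to 0.863 with them.

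**Figure D2:**
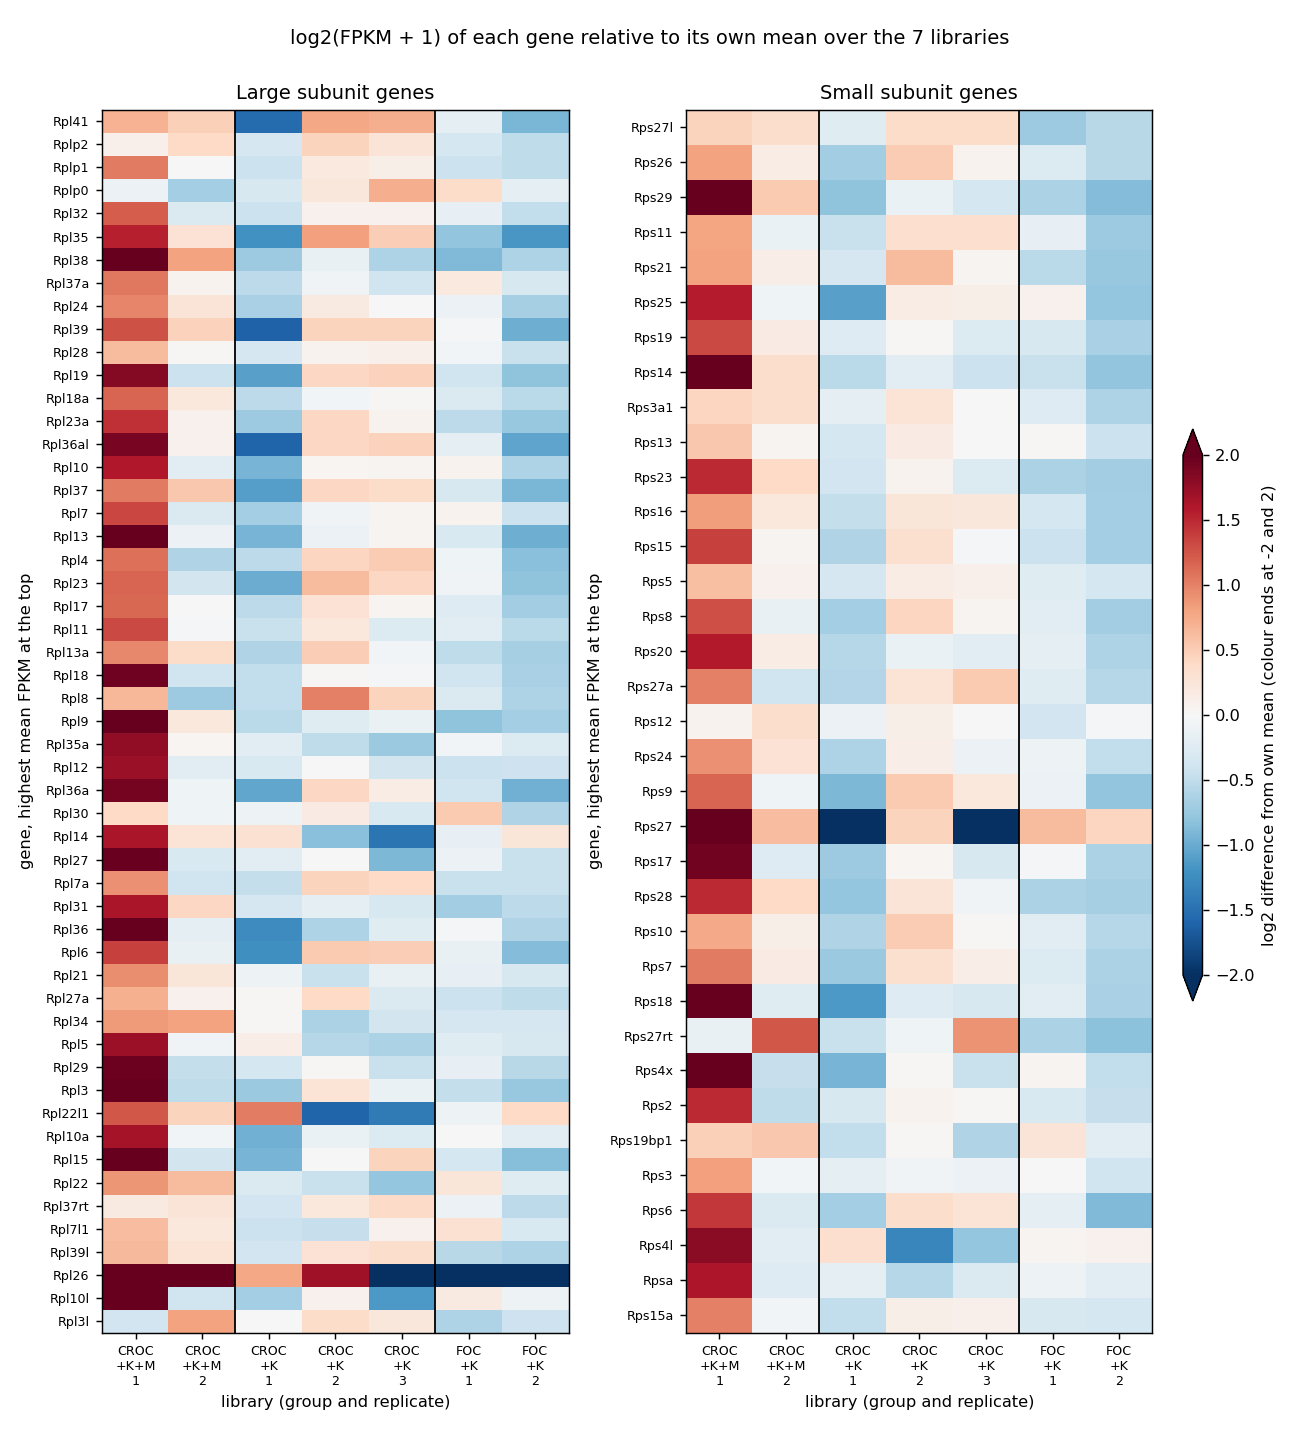
log2(FPKM + 1) of each gene relative to its own mean over the 7 libraries, as colour from -2 (blue) to 2 (red), with genes in rows by subunit and libraries in columns. CROC+K+M replicate 1 is red in nearly all rows, with a median of 1.26, and CROC+K replicate 1 and FOC+K replicate 2 are blue in most, with medians of -0.51 and -0.60.

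The genes moved largely together from library to library, and less by group than by library. Relative to each gene's own mean on the log2 scale, the median over the 88 genes was 1.26 and 0.06 in CROC+K+M, -0.51, 0.15 and 0.02 in CROC+K, and -0.23 and -0.60 in FOC+K. Over all genes tested the same medians lay between -0.02 and 0.01. CROC+K+M replicate 1 held the highest value of 78 of the 88 genes, and of 26.7% of all genes tested. CROC+K+M replicate 2, which shares its label, held that of 4 of the 88, and of 14.7% of all genes tested. Within CROC+K, the mean of replicates 2 and 3 exceeded replicate 1 in 77 of 88 genes, with a median log2 difference of 0.65. In bulk embryos, fewer cells of a type and less RNA per cell cannot be told apart.

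A few genes went against this order; they were chosen after their values were seen. Rpl22l1, the paralog of Rpl22, had 120.4 FPKM in CROC+K replicate 1 but 18.8 and 21.6 in replicates 2 and 3. Rpl14, a large subunit gene, had 217.5, 97.8 and 63.2 FPKM in the same 3 libraries, and Rps4l, a retrocopy related to Rps4x, 97.7, 30.8 and 44.6. In these genes replicate 1 was the highest CROC+K library, as it was in 9 of the 88 genes in all. Below their own mean in CROC+K+M replicate 1 were only Rpl3l, Rplp0 and Rps27rt among the 88.

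**Figure D3:**
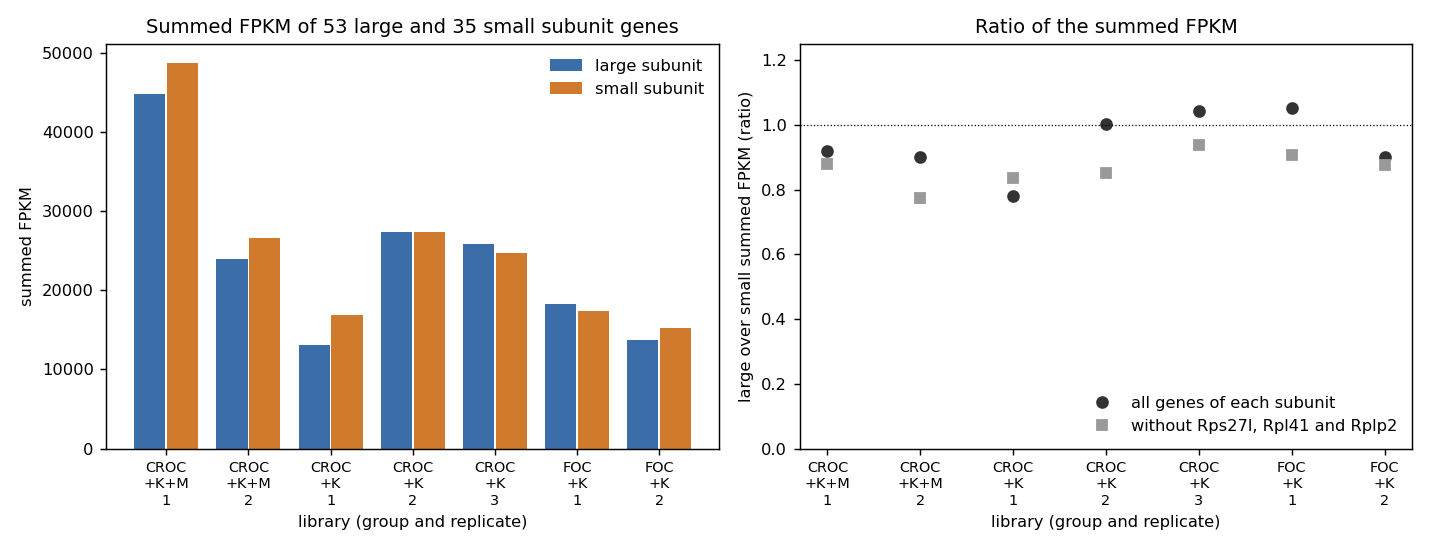
Left, summed FPKM of the 53 large subunit genes (blue) and the 35 small subunit genes (orange) in each library; right, the ratio of the sums, with all genes (circles) and without the 3 highest (squares). Sums range from 13111 to 44826 for the large and from 15184 to 48712 for the small subunit, while the ratio stays between 0.779 and 1.05.

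Summed over the 88 genes, FPKM were 93538 and 50481 in CROC+K+M, 29933, 54808 and 50641 in CROC+K, and 35748 and 28854 in FOC+K. Group means were 72010 ± 30450 in CROC+K+M (SD, n = 2), 45130 ± 13320 in CROC+K (SD, n = 3) and 32300 ± 4875 in FOC+K (SD, n = 2), and the ranges of CROC+K+M and CROC+K, and of CROC+K and FOC+K, overlapped. The 3 libraries with Rn45s over 1000 had the 3 lowest sums; the part of Rn45s in this was not tested. As a share of all FPKM the genes took 9.19% and 6.95% in CROC+K+M, 5.20%, 6.87% and 6.21% in CROC+K, and 6.11% and 5.22% in FOC+K. No CROC+K+M library had a lower share than any library without melatonin. Rps27l, Rpl41 and Rplp2 alone made up 21.4% to 39.5% of the sum; without them the shares were 7.22% and 4.31% in CROC+K+M, 3.48%, 4.27% and 3.76% in CROC+K, and 4.31% and 3.54% in FOC+K.

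Large and small subunit genes kept a narrow ratio while their sums varied over 3-fold. The large subunit summed to 44826 and 23913 FPKM in CROC+K+M, to 13111, 27431 and 25867 in CROC+K, and to 18327 and 13669 in FOC+K. The small subunit summed to 48712 and 26568, to 16822, 27376 and 24774, and to 17421 and 15184 FPKM in the same order of libraries. With all genes, the ratio of large to small was 0.910 ± 0.0142 in CROC+K+M (SD, n = 2), 0.942 ± 0.142 in CROC+K (SD, n = 3) and 0.976 ± 0.107 in FOC+K (SD, n = 2). These means differed by less than the SD within CROC+K. The lowest ratio, 0.779, was that of CROC+K replicate 1, where Rpl41 was low. Without the 3 highest genes it was 0.835, and all 7 ratios lay between 0.775, in CROC+K+M replicate 2, and 0.939. The group means were then 0.826 ± 0.0729 in CROC+K+M (SD, n = 2), 0.875 ± 0.0557 in CROC+K (SD, n = 3) and 0.892 ± 0.0215 in FOC+K (SD, n = 2). Here CROC+K+M and FOC+K differed by more than the SD within CROC+K but by less than that within CROC+K+M. Per gene, the median level was lower in the large subunit, at 147.4 to 637.3 FPKM over the libraries, than in the small one, at 297.9 to 997.0.

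**Figure D4:**
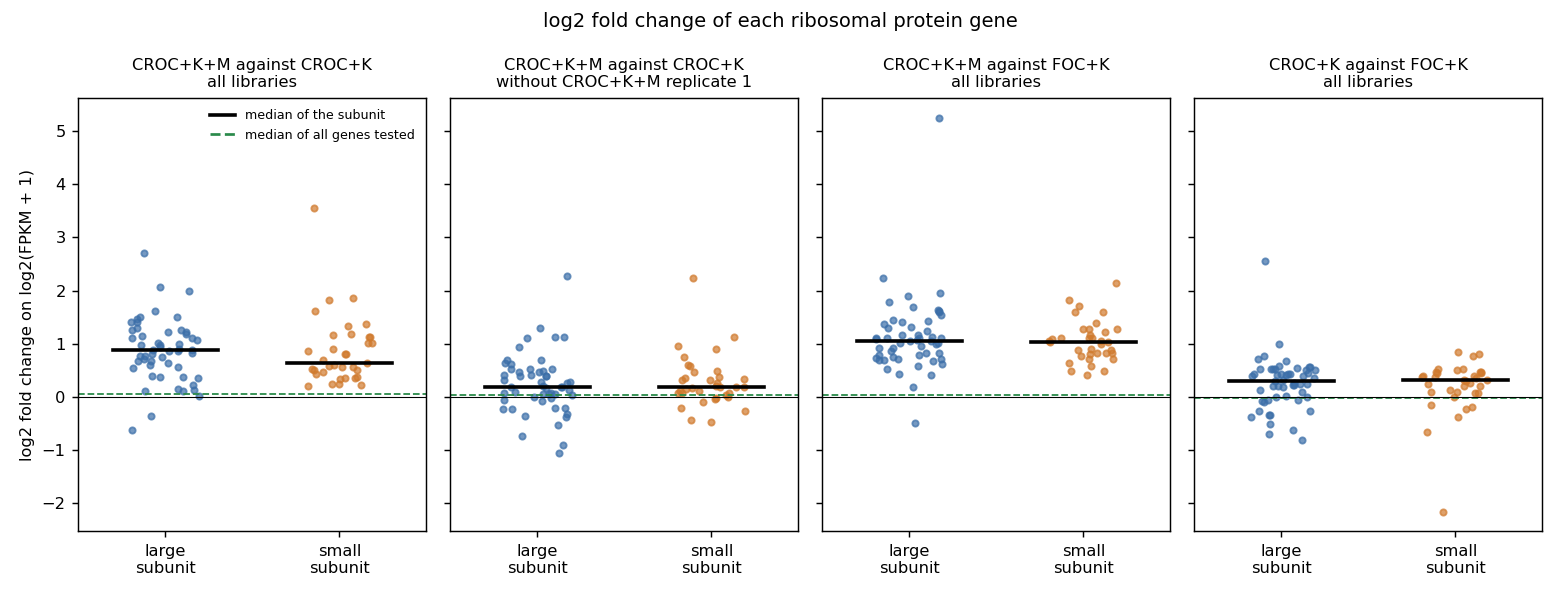
log2 fold change (on log2(FPKM + 1)) of each large (blue) and small (orange) subunit gene in 4 panels: CROC+K+M against CROC+K with all libraries and without CROC+K+M replicate 1, CROC+K+M against FOC+K, and CROC+K against FOC+K. Bars mark the medians of the subunits and the dashed line that of all 12271 genes; without CROC+K+M replicate 1 the median of the large subunit is 0.19 in place of 0.89.

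Melatonin after oocyte vitrification is addressed by CROC+K+M against CROC+K. Of the 88 genes, 86 were higher on average in CROC+K+M, with a median log2 fold change of 0.82, beside 0.06 over all 12271 genes tested. None passed an adjusted p of 0.05 in limma, the share of all genes being 0%. At an unadjusted p under 0.05, 23 genes were higher (6.69% of all genes tested) and 0 lower (3.75%). In 28 genes both CROC+K+M libraries lay above all 3 of CROC+K (12.3% of all genes), and in 0 both lay below (11.2%). The median was 0.89 in the large subunit and 0.64 in the small one. Leaving out CROC+K+M replicate 1, where trophectoderm markers were high, gave a median of 0.19 with 66 of 88 genes higher, and leaving out replicate 2 a median of 1.41. Oocyte and cumulus marker sums were lower in both CROC+K+M libraries than in CROC+K, though single markers of both lists went both ways. The part of any of these markers in the result was not tested. The median was 0.56 (76 genes higher) with equal FPKM sums and 0.47 (74 genes higher) with quantile normalization.

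Rpl38, a large subunit protein through which some Hox mRNAs are translated in the mouse embryo, had 1945 and 749.5 FPKM in CROC+K+M, and 260.4, 386.0 and 279.7 in CROC+K. The groups did not overlap, and the log2 fold change was 1.99 ± 0.42 (SE; adjusted p = 0.408, limma), or 1.30 without CROC+K+M replicate 1. Rpl22, an RNA-binding protein of the large subunit needed for T cell development in mice, had 100.0 and 83.5 FPKM in CROC+K+M, against 43.6, 39.3 and 31.1 in CROC+K. Here both CROC+K+M libraries were alike, and the fold change of 1.26 ± 0.29 (SE; adjusted p = 0.408, limma) was 1.13 without CROC+K+M replicate 1. Rpl34, another large subunit gene, had 167.6 and 161.7 FPKM in CROC+K+M, against 93.5, 59.4 and 71.2 in CROC+K. Its log2 fold change was 1.15 ± 0.27 (SE; adjusted p = 0.408, limma), and 1.13 without CROC+K+M replicate 1. Rpl34 was the smaller part of a pair with a near-identical copy. The sums of both, given further on, were less alike in CROC+K+M, at 1106 and 588.2 FPKM.

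Lower means were found in 2 genes. Rplp0, the base of the stalk that carries Rplp1 and Rplp2, had 1028 and 694.6 FPKM in CROC+K+M, and 895.0, 1305 and 1844 in CROC+K. The log2 fold change of Rplp0 was -0.61 ± 0.39 (SE; adjusted p = 0.60, limma). It was -0.89 without CROC+K+M replicate 1 and -0.33 without replicate 2. Its partner Rplp1 had 2474 and 1214 FPKM in CROC+K+M, and 890.2, 1383 and 1304 in CROC+K, so the stalk genes did not share 1 pattern. Rpl8, which lies next to the peptidyl transferase centre, had 391.4 and 149.3 FPKM in CROC+K+M, and 176.2, 498.7 and 336.9 in CROC+K, and the groups of both genes overlapped. The log2 fold change of Rpl8 was -0.35 ± 0.54 (SE; adjusted p = 0.839, limma), and 0.34 without CROC+K+M replicate 2.

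By place in the ribosome, all 14 genes of the head of the small subunit and all 17 of its body and platform were higher on average in CROC+K+M, with medians of 0.86 and 0.59, of which 5 and 4 had an unadjusted p under 0.05, against 6.69% of all genes tested. The 8 genes around the exit tunnel of the large subunit had a median of 0.88 (2 of 8), Rpl5 and Rpl11, which join 5S RNA in the large subunit, one of 0.996 (0 of 2), and the 4 stalk genes one of 0.34 (0 of 4). The 17 genes whose human counterparts are mutated in Diamond-Blackfan anaemia had a median of 1.01 (7 of 17). Without CROC+K+M replicate 1 these medians were 0.20 for the head, 0.08 for body and platform, 0.21 for the exit tunnel, 0.21 for Rpl5 and Rpl11, 0.02 for the stalk and 0.26 for the anaemia genes. Among the 4 libraries with Rn45s under 1000, CROC+K+M replicate 2 set against CROC+K replicates 2 and 3 had 41 of 88 genes higher and 47 lower, with a median log2 difference of -0.03. That comparison has 1 library on one side and was chosen after the values were seen.

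Vitrification of the oocyte separates CROC+K from FOC+K. Of the 88 genes, 68 were higher on average in CROC+K, with a median log2 fold change of 0.31 (0.31 in the large and 0.32 in the small subunit), beside -0.03 over all genes tested. None passed an adjusted p of 0.05 in limma (0% of all genes); at an unadjusted p under 0.05, 1 gene was higher (1.13% of all genes) and 0 lower (1.06%). In 13 genes all CROC+K libraries lay above both FOC+K libraries (9.66% of all genes), and in 1 all lay below (9.47%). CROC+K replicate 1, the library with high Rn45s, sat with FOC+K: against FOC+K alone, 31 of 88 genes were higher and 57 lower in it, with a median of -0.08. CROC+K replicates 2 and 3 had 70 of 88 genes higher than FOC+K, with a median of 0.49. The median was 0.14 without CROC+K replicate 2, and 0.16 without FOC+K replicate 2 but 0.48 without FOC+K replicate 1. With libraries scaled to equal FPKM sums the median was -0.03, beside -0.30 over all genes, and with quantile normalization it was 0.02.

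Rps27l was the gene with the unadjusted p under 0.05. Its values, given above, do not overlap between these groups, and its log2 fold change was 0.80 ± 0.32 (SE; adjusted p = 0.9996, limma). Rps21, a small subunit gene, had 699.6, 1371 and 918.7 FPKM in CROC+K, against 604.2 and 522.9 in FOC+K, and its log2 fold change was 0.77 ± 0.37 (SE; adjusted p = 0.9996, limma). All CROC+K libraries lay above both of FOC+K. Rpl22 had 43.6, 39.3 and 31.1 FPKM in CROC+K, against 63.9 and 45.4 in FOC+K, and its log2 fold change was -0.51 ± 0.29 (SE; adjusted p = 0.9996, limma). It was the 1 gene lower without overlap, and the value was -0.26 without FOC+K replicate 1. Rps19bp1, which binds Rps19 in the nucleolus, had 117.6, 167.8 and 108.8 FPKM in CROC+K and 199.1 and 142.7 in FOC+K, and its log2 fold change was -0.38 ± 0.30 (SE; adjusted p = 0.9996, limma). Its groups overlapped, and the value was -0.14 without FOC+K replicate 1. With quantile normalization Rps27l was at 0.40 and Rps21 at 0.39. Rpl26 (2.55 ± 1.12, SE) and Rps27 (-2.15 ± 1.07, SE) had the largest log2 fold changes here, with adjusted p = 0.9996 for both in limma. Both have a near-identical copy, and their sums with it are given further on.

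CROC+K+M and FOC+K differ in vitrification and in melatonin together, and this comparison shares its libraries with the others. Of the 88 genes 87 were higher on average in CROC+K+M, with a median log2 fold change of 1.05, beside 0.04 over all genes tested, and near-equal medians of 1.06 and 1.04 in the large and small subunit. None passed an adjusted p of 0.05 in limma (0% of all genes); at an unadjusted p under 0.05, 30 genes were higher (4.46% of all genes) and 0 lower (2% of all genes). Both CROC+K+M libraries lay above both FOC+K libraries in 57 genes (21.3% of all genes) and below both in 0 (19.8%). The median was 0.38, with 76 genes higher, when CROC+K+M replicate 1 was left out, and 1.62 when replicate 2 was. With equal FPKM sums the median was 0.45, beside -0.44 over all genes.

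Rpl38, at 233.2 and 281.2 FPKM in FOC+K, had a log2 fold change of 2.23 ± 0.46 (SE; adjusted p = 0.736, limma) between CROC+K+M and FOC+K. Rps23, part of the decoding centre of the small subunit, had 1689 and 789.1 FPKM in CROC+K+M, against 388.5 and 372.0 in FOC+K, and its log2 fold change was 1.60 ± 0.40 (SE; adjusted p = 0.736, limma). Its CROC+K libraries lay between, at 461.9, 631.7 and 496.6 FPKM. Rplp0 was the gene with the lower mean, at 1028 and 694.6 FPKM in CROC+K+M, against 1444 and 970.4 in FOC+K. The groups overlapped, with a log2 fold change of -0.49 ± 0.43 (SE; adjusted p = 0.842, limma). This ranged from -0.77 to -0.20 with 1 library left out and was -1.26 with quantile normalization, where Rps23 was at 0.87.

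**Figure D5:**
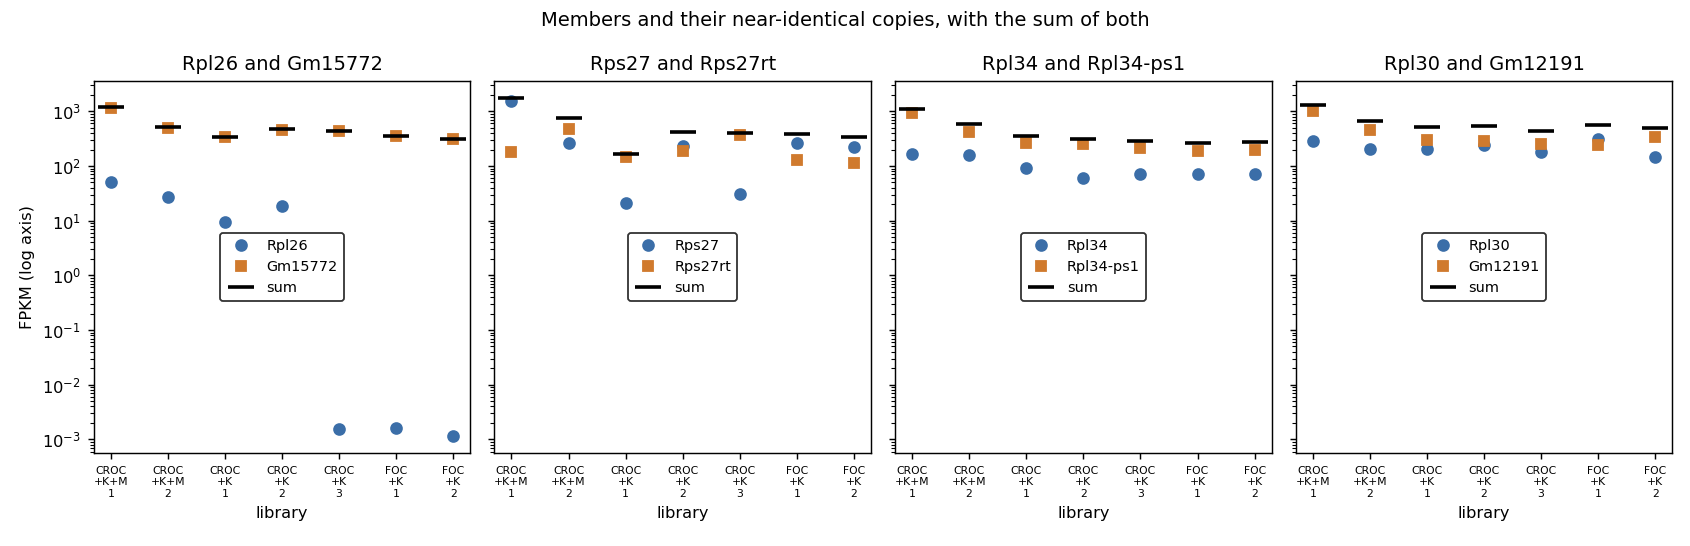
FPKM (log axis) per library of Rpl26, Rps27, Rpl34 and Rpl30 (blue circles), of a copy nearly identical to each in coding sequence (orange squares) and of both summed (black bars). Rpl26 falls near 0 in 3 libraries where the sum with Gm15772 stays at 318.4 or more.

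Of the 88 genes 87 were at an FPKM of 1 or more in every library, and Rpl26 was the exception. It had 50.3 and 27.3 FPKM in CROC+K+M, 9.27, 18.6 and 0.00155 in CROC+K, and 0.00164 and 0.00115 in FOC+K. Gm15772, a copy identical to it over 99.5% of the coding sequence, had 1148 and 487.0 FPKM in CROC+K+M, 335.8, 459.6 and 430.9 in CROC+K, and 352.1 and 318.4 in FOC+K. The copy thus held 94.7% or more of the joint level in every library, and where Rpl26 was near 0 the copy was not. Summed, the pair had a log2 fold change of 0.31 ± 0.38 (SE; adjusted p = 0.9996, limma) for CROC+K against FOC+K, in place of the 2.55 of Rpl26 alone. Between CROC+K+M and FOC+K the sum gave 1.23 ± 0.42 (SE; adjusted p = 0.733, limma), and Rpl26 alone 5.25 ± 1.22 (SE; adjusted p = 0.736, limma), a value that depends on the pseudocount of 1 (8.52 with 0.1).

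Rps27, a zinc finger protein of the small subunit, varied 74.0-fold between libraries, the widest range among the 87. It had 1577 and 258.7 FPKM in CROC+K+M, 21.3, 229.4 and 31.2 in CROC+K, and 261.5 and 226.7 in FOC+K. Its retrocopy Rps27rt, which matches the coding sequence at 100% and shares the start of the transcript printed above, had 181.7 and 481.5 FPKM in CROC+K+M, 147.7, 190.6 and 375.9 in CROC+K, and 130.4 and 113.5 in FOC+K. The retrocopy's share of the pair ran from 10.3% in CROC+K+M replicate 1 to 92.3% in CROC+K replicate 3. The sums were 1759 and 740.2 FPKM in CROC+K+M, 169.0, 419.9 and 407.2 in CROC+K, and 391.9 and 340.1 in FOC+K. On the sums the log2 fold change was 1.89 ± 0.51 (SE; adjusted p = 0.408, limma) between CROC+K+M and CROC+K, where Rps27 alone gave 3.54 ± 1.07. Between CROC+K and FOC+K it was -0.25 ± 0.51 (SE; adjusted p = 0.9996, limma), where Rps27 alone gave -2.15.

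Rpl34 took the smaller part of its pair: Rpl34-ps1, 99.4% identical, held 72.0% to 84.9% of the joint level. The sums were 1106 and 588.2 FPKM in CROC+K+M, 353.6, 310.3 and 285.1 in CROC+K, and 260.3 and 271.5 in FOC+K, and both CROC+K+M libraries lay above the other 5. The summed log2 fold change of 1.35 ± 0.32 (SE; adjusted p = 0.408, limma) between CROC+K+M and CROC+K stood beside 1.15 for Rpl34 alone. Between CROC+K and FOC+K the sum of Rpl34 and its copy gave 0.24 ± 0.32 (SE), beside 0.01 for Rpl34 alone. Rpl30, a large subunit protein, shared its level with Gm12191, 99.7% identical, which held 43.6% to 77.9%. Their sum had a log2 fold change of 0.92 ± 0.33 (SE, adjusted p = 0.4265, limma) between CROC+K+M and CROC+K, beside 0.23 for Rpl30 alone. Between CROC+K+M and FOC+K the sum gave 0.83 ± 0.37 (SE, adjusted p = 0.7555, limma), and Rpl30 alone 0.18. Copies are the rule in this family: 79 of the 88 genes had at least 1 GENCODE transcript at 95% or more identity over 80% or more of the coding sequence. For 17 of them such a copy has a row of its own in the table, and 10 copy rows reached an FPKM of 10 in some library. For genes whose copies have no row, how reads were shared is not known.

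Paralogs that can stand in for a canonical protein showed shares that ranged from under 1% to nearly all. Rps27l, 76.2% identical to Rps27 in coding sequence, held 85.9% to 99.7% of the pair's FPKM, the lowest share being in CROC+K+M replicate 1, where Rps27 was highest. Rpl36al, 87.7% identical to Rpl36a, held 54.9% to 69.2%, with 1249 and 357.1 FPKM in CROC+K+M, 110.5, 445.9 and 464.6 in CROC+K, and 292.2 and 160.3 in FOC+K. Rpl22l1, 70.2% identical to Rpl22, held 58.5% and 49.3% in CROC+K+M, 73.4%, 32.4% and 41.0% in CROC+K, and 46.2% and 63.3% in FOC+K. The range within CROC+K thus covered both other groups. Rpl22 is known to hold down Rpl22l1 in the mouse. The testis paralogs were minor: Rpl39l held 3.89% to 12.5% of its pair with Rpl39, and Rpl10l 0.52% to 2.37% of its pair with Rpl10. The muscle paralog Rpl3l held 1.09% and 18.2% in CROC+K+M, 11.9%, 8.22% and 9.55% in CROC+K, and 6.05% and 8.68% in FOC+K. The lowest and the highest share were thus both in CROC+K+M, where Rpl3l itself had 3.06 and 8.28 FPKM.

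Subunit genes that the symbol rule misses include Gnb2l1 and Fau. Gnb2l1, the scaffold protein on the head of the small subunit also called Rack1, had 257.1 and 66.8 FPKM in CROC+K+M, 35.1, 30.5 and 33.7 in CROC+K, and 38.1 and 43.9 in FOC+K. Both CROC+K+M libraries lay above the other 5, and replicate 1 was the highest. Fau, which encodes a small subunit protein fused to a ubiquitin-like domain, had 1438 and 760.9 FPKM in CROC+K+M, 421.5, 886.4 and 879.9 in CROC+K, and 471.6 and 392.4 in FOC+K. Its CROC+K+M and CROC+K libraries overlapped. Between CROC+K+M and CROC+K the log2 fold change was 1.96 ± 0.51 for Gnb2l1 (SE; adjusted p = 0.408, limma) and 0.60 ± 0.43 for Fau (SE; adjusted p = 0.641, limma).

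Other mRNAs are known to carry a terminal oligopyrimidine tract too. Of 18 such genes, 12 were higher on average with melatonin than in CROC+K, with a median log2 fold change of 0.36 and 3 at an unadjusted p under 0.05, beside 6.69% of all genes tested. Those 3 were Eef1g, an elongation factor gene, and Eif3e and Eif3f, of an initiation factor. Eif3e had 231.8 and 29.998 FPKM in CROC+K+M, and 46.2, 2.16 and 5.93 in CROC+K. The groups overlapped, with a log2 fold change of 3.07 ± 1.19 (SE; adjusted p = 0.453, limma). Leaving out CROC+K+M replicate 1, the 18 genes had a median of -0.03. Of the 15 genes that act on these mRNAs (Larp1, mTOR and their partners), 11 were higher on average, with a median of 0.35 and 0 at an unadjusted p under 0.05. Of 15 tested transcription factor genes linked to ribosomal protein promoters, 9 were higher on average, with a median of 0.02 (0 of 15), and of 18 chaperones and export factors 11, with a median of 0.12 (1 of 18, Rps19bp1). Leaving out CROC+K+M replicate 1, these medians were 0.19 for the regulators, 0.10 for the transcription factors and 0.32 for the chaperones and export factors.

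The ribosome of mitochondria offers a set of like size and separate evolution. Of its 77 genes, 68 were higher on average with melatonin than in CROC+K, with a median log2 fold change of 0.90, and 26 had an unadjusted p under 0.05, beside 6.69% of all genes tested. Mrpl42, a large subunit gene there, had 903.6 and 243.8 FPKM in CROC+K+M, and 112.9, 92.6 and 116.3 in CROC+K. Both values lay above CROC+K, and that of replicate 1 was the highest. Without CROC+K+M replicate 1 the mitochondrial median was 0.33. Between CROC+K and FOC+K its median was -0.08, with 35 of 77 higher, beside 0.31 with 68 of 88 in the cytosolic ribosome. By library, the median of the mitochondrial genes relative to their own mean was 1.04 and 0.11 in CROC+K+M, 0.03, -0.47 and -0.40 in CROC+K, and -0.39 and -0.13 in FOC+K. Within CROC+K, replicate 1 was thus the highest library for the mitochondrial genes and the lowest for the cytosolic ones. The difference between the sets was not tested.

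The log2 fold changes can be set beside promoter letters and length. The 43 genes with a run of 7 or more pyrimidines anywhere in a 50-base window had a median log2 fold change of 0.82 between CROC+K+M and CROC+K. For the 24 without one it was also 0.82. Such a run need not lie at the start, so this does not sort genes by a terminal oligopyrimidine tract. Between CROC+K and FOC+K the medians were 0.32 and 0.39, and between CROC+K+M and FOC+K 1.08 and 0.99. The Spearman correlation of coding length with the log2 fold change over 86 genes was -0.18 with melatonin against CROC+K, -0.05 between CROC+K and FOC+K and -0.30 with melatonin against FOC+K. Genes with a coding length up to 453 bases had medians of 0.89, 0.29 and 1.11 in these comparisons, and longer ones 0.77, 0.33 and 1.001. These are descriptions over genes that share their libraries.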

How the data were processed

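RNA of 7 SCNT embryo libraries was analysed from 1 deposited table of FPKM values per gene symbol and library. The authors' values were used as deposited. The submitters' processing notes name build mm9, R 3.3.2, STAR 2.5.2b, Cuffnorm and Cufflinks 2.2.1, without the step each served; annotation and scaling were not stated there. Median-ratio factors computed from the table were 1.007 to 1.018, so typical gene levels were already alike between libraries in the deposited values. Where genes are nearly identical, Cufflinks divides fragments by a statistical model. The number of fragments per library is unknown, so no counting interval is given. Per the labels' protocols, cDNA came from a SMARTer Ultra Low Input kit and libraries from ScriptSeq v2, from RNA with an integrity number above 7.0.

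Groups came from the sample titles. The labels speak of biological replicates without naming cultures or donors, so p-values measure the spread between these pools. After removal of 1276 rows (small RNAs, precursors of ribosomal RNA), 12271 genes with an FPKM of at least 1 in 2 or more libraries were tested with limma 3.58.1 (intensity trend, R 4.3.3) on log2(FPKM + 1). All 7 libraries entered 1 fit with a term for group alone (4 residual degrees of freedom) and 2-sided p-values adjusted by the Benjamini-Hochberg method over all genes tested. Fold changes on this scale understate the change of low genes. The fit was tested on simulated data in which genes varied independently. Such data cannot show how the fit performs where a library shifts many genes together, as here.

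The genes, lists and marker lists were chosen with earlier results of these data known, so no p-value is given for a list. Named genes are, in each comparison, the 3 with the smallest unadjusted p in each direction, the 4 highest and 4 lowest by mean, those both under 1 and at 10 or more FPKM, paralogs with their partners, Rpsa and the stalk genes, and up to 3 per list; any other gene is marked as picked afterwards or stands for a copy. Copies were found with BLAST 2.17.0 between GENCODE coding sequences and transcripts (build GRCm38), and promoters are RefSeq's (GRCm38.p6), with coordinates in that build, since no mm9 genome was used here. Python 3.11.15, pandas 2.3.3, scipy 1.17.1 and matplotlib 3.10.9 were used. The alternatives were other pseudocounts, filters and scalings, limma with array weights or robust moderation, leaving out each library and a replicate block. Not every gene of the compared lists is reported here.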

Additional observations from a re-analysis of the deposited data

How the results depend on the processing

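The direction of the median over the 88 genes was kept in both comparisons of CROC+K+M under the pseudocounts, filters, scalings, left-out libraries and replicate block tried for it, but not for CROC+K against FOC+K, where equal FPKM sums gave -0.03. Leaving out 1 library at a time, which can leave a group with 1 library that is assumed to vary like the others, moved the median between 0.19 and 1.41 when CROC+K+M was set against CROC+K. The range was 0.14 to 0.49 for CROC+K against FOC+K, and 0.38 to 1.62 between CROC+K+M and FOC+K. In the last comparison it was 0.45 with equal FPKM sums and 0.41 with quantile normalization. Among libraries with Rn45s under 1000, with CROC+K+M replicate 2 alone, the median for CROC+K+M against CROC+K was -0.0257, and with both CROC+K+M libraries 0.55; this was chosen after seeing the data.

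Counts of genes past an adjusted p of 0.05, 0 in each comparison, were 22, 13 and 30 without a filter on low values in the same order of comparisons, with 0 of the 88 genes among them. Leaving out 1 library moved the counts between 0 and 658 when CROC+K+M was set against CROC+K, or between 0 and 546 when it was set against FOC+K, the highest being without CROC+K+M replicate 2, where 24 and 22 of the 88 ribosomal protein genes were past the threshold, beside 5.36% and 4.45% of all genes tested; for CROC+K against FOC+K they were 0 throughout. Array weights and robust moderation gave 0 in each comparison.

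The large minus small subunit difference of the medians, 0.25 for CROC+K+M against CROC+K, was 0.18 with quantile normalization and -0.0013 to 0.27 with 1 library left out. For CROC+K against FOC+K it was -0.0953 to 0.0437 with 1 library left out. Between CROC+K+M and FOC+K it was 0.137 with quantile normalization and -0.17 to 0.12 with 1 library left out. With the replicate block, the subunit difference for CROC+K against FOC+K was -0.0897, and the counts of genes past the threshold were 0 in each comparison. Same-numbered libraries deviated from their group means with correlations of -0.46 to 0.03. In a group of 2 libraries these deviations mirror each other, so the correlations cannot decide whether the numbers pair libraries.

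Of the named genes, Rpl8 between CROC+K+M and CROC+K ranged from -1.05 without CROC+K+M replicate 1 to 0.338, a reversal, without replicate 2, and Rpl38 (2.67, adjusted p = 0.00909) against CROC+K, and Rpl38 (2.92, adjusted p = 0.0102) and Rps23 (2.15, adjusted p = 0.0185) against FOC+K, passed the threshold there. The cause of these differences was not tested. Summing members with their copies, chosen after seeing the data, moved Rpl26, Rps27, Rpl34 and Rpl30 as described and no median by more than 0.01. With equal FPKM sums, 4 of 14 subunit sums moved by more than the spread between replicates, all of them in FOC+K. The large subunit sums of FOC+K were then 22180 and 17540, within the 16190 to 24310 of CROC+K. The small ones were 21090 and 19480, beside 20770 to 24260 in CROC+K. Those of CROC+K+M replicate 1 fell to 31260 and 33970, a shift within a spread that this library itself widens. With 2 or 3 libraries a group, the spread between pools limits what can be seen.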
